A study of Mus musculus with 12 samples.

Results

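The comparison described here set mouse hippocampus 1 week after a CREB activator was switched on against hippocampus in which it had never been on, using 5 of the 12 Affymetrix MG-U74Av2 arrays of the study. The mice, named VC in the labels, carry VP16-CREB, a fusion of the transcription factor CREB with a viral activation domain, under control of doxycycline (dox): the transgene is off while dox is given and comes on when dox is withdrawn. The induced group was VC hippocampus 1 week off dox (n = 2 arrays), and the never-induced group was wild-type hippocampus (n = 2 arrays) and VC hippocampus kept on dox (n = 1 array). Arrays were assigned to these groups by their titles alone. Gene lists and their members were chosen with earlier results of these data known. Arrays of VC hippocampus 2 weeks off dox (n = 2), 5 weeks off dox (n = 1) and after reversal (n = 1) are quoted with the 1-week values. Reversal was transgene on for 3 weeks, then 2 weeks back on dox. The 3 arrays of microdissected CA1 entered the estimate of spread, the floor, the brightness filter and the choice of each gene's brightest probe set. The reversed sample is transgenic in its title and wild type in its description.

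Each hippocampal array held RNA pooled from 6 to 10 mice of 1 genotype and induction time. Every p-value below thus rests on spread between arrays and not between mice, with precision set by the few arrays. In the main fit that spread was estimated over all 12 arrays. It includes the difference between the CA1 VC arrays, whose pool size is not given, and between wild type and VC on dox. In the published line the transgene is driven in forebrain neurons through the CaMKII alpha promoter; the labels do not name a promoter, and for age, sex, strain background and whether the wild-type mice received dox, nothing is given in the sources used here. Among the never-induced arrays only the VC array on dox shares the transgene and dox with the 1-week group before withdrawal. Whole hippocampus holds neurons, glia and vessels, so fewer cells of a type and less RNA per cell cannot be told apart.

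CREB is activated by cAMP and calcium signals, and binds the cAMP response element (CRE), a short palindrome near the start of many genes that neurons switch on with activity. These include immediate early genes, which encode transcription factors and feedback phosphatases, growth factors such as Bdnf, and neuropeptide precursors such as prodynorphin. VP16-CREB does not need phosphorylation to activate transcription. Microglia are the resident immune cells of the brain, and carry complement, Fc receptor and antigen presentation genes that are raised when they are activated.

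The promoters of 4 genes that recur below are shown because CREB acts through the CRE: Pdyn, the gene with the largest 1-week difference, the immediate early genes Fos and Nr4a2, and Sst, whose CRE is the textbook example. Each is the stretch of 250 bases upstream of a RefSeq transcript start (build GRCm38.p6), 5′ to 3′ on the gene's strand, with the CRE core TGACG, or its complement CGTCA, in capitals. Positions are chr2:129698659-129698908 (minus strand) for Pdyn, chr12:85473640-85473889 (plus strand) for Fos, chr2:57124004-57124253 (minus strand) for Nr4a2 and chr16:23890845-23891094 (minus strand) for Sst.
Pdyn: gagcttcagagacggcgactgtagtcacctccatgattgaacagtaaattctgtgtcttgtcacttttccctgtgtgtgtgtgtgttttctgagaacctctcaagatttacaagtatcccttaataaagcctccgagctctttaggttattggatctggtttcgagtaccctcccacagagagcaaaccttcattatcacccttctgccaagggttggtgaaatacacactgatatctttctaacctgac
Fos: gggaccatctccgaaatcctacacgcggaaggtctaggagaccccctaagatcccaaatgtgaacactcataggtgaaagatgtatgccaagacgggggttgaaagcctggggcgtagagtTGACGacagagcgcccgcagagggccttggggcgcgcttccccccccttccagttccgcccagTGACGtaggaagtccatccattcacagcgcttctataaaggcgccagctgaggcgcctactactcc
Nr4a2: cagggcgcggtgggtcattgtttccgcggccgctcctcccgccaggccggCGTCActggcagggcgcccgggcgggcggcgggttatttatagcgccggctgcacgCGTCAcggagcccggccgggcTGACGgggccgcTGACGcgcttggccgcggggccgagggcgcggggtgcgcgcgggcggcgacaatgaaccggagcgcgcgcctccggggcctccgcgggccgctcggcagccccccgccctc
Sst: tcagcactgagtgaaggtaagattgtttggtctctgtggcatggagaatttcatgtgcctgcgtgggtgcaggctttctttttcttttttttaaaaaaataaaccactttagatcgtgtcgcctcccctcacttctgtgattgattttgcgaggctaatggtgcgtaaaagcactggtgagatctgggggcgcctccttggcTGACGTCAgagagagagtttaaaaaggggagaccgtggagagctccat

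Sst held the full palindrome TGACGTCA 48 bases upstream of the start. Fos held the core 129 and 66 bases upstream, and Nr4a2 held it 4 times, at 200, 144, 123 and 111 bases. Neither of the 2 Pdyn windows held the core, which says only that these letters are not in those windows. Searched on both strands over windows of 300 bases (250 upstream and 50 downstream), with each full CRE also counted as core, the core was in 20.8% of all 32851 RefSeq windows and the full CRE in 1.79%. By gene, 13 of 19 tested immediate early genes with a window (68.4%) held the core, against 1627 of 4391 tested genes (37.1%). Among the 12 higher and 12 lower genes named below it was in 2 of 10 and 4 of 11 genes with a window. These matches are descriptions of sequence and not binding sites.

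Levels below are log2 of intensity, after rescaling of every array to 1 trimmed mean (1000) and with a floor at 65.7 (6.04 on the log2 scale), and differences are log2, 1 week minus never induced, with limma's standard error (SE). Of 12422 probe sets, 7069 were bright enough to test. Pdyn and Creb1 rose, 2 of 7069 probe sets (0.0283%), and none fell at an adjusted p of 0.05 (limma, Benjamini-Hochberg). At an unadjusted p under 0.05 there were 354 probe sets, 163 of them higher and 191 lower. As a plain description, both 1-week arrays lay above all 3 never-induced arrays for 878 probe sets (12.4%) and below all 3 for 933 (13.2%). "Stood clear" is used below for such genes, whose groups did not overlap, and carries no test.

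Pdyn, which encodes prodynorphin, the precursor of the dynorphin opioid peptides, gave the largest difference. On probe set 99840_at it read 6.04 and 6.65 on the wild-type arrays, 6.79 on the VC array on dox, and 8.93 and 9.70 at 1 week. It was thus at or close to the floor without induction and stood clear at 1 week. The difference was 2.82 ± 0.28 (SE), at least 7.07-fold, with an adjusted p of 0.0365 (limma). Levels at 2 weeks were 10.89 and 11.13, the 5-week level was 10.84, and the reversed array read 6.04. Between 2 weeks and 1 week the difference of 1.70 did not pass (adjusted p = 0.159, limma). A brighter Pdyn probe set, 161987_at, moved less: it read 9.56, 9.51 and 9.44 without induction and 9.83 and 9.65 at 1 week, a difference of 0.24 ± 0.15 (SE) that did not pass (adjusted p = 0.969), and 10.87 and 10.68 at 2 weeks.

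Creb1 encodes CREB itself, and the transgene is a fusion that contains CREB sequence. Probe set 102672_g_at read 6.04, 6.33 and 6.04 on the never-induced arrays (wild type 1, wild type 2 and VC on dox, in the order kept throughout) and 8.31 and 8.50 at 1 week. The difference of 2.27 ± 0.25 (SE), at least 4.82-fold, passed with an adjusted p of 0.0365 (limma). Probe set 102671_at of the same gene read 7.65, 6.36 and 7.66 without induction and 8.34 and 8.14 at 1 week, so it stood clear, but its difference of 1.02 ± 0.44 (SE) did not pass (adjusted p = 0.969). After reversal the 2 probe sets read 7.10 and 7.68. Whether the signal came from the transgene or the endogenous gene was not tested.

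The calls for both genes depended on single arrays and on the fit. Leaving out any 1 of the 5 arrays ended both calls, with adjusted p between 0.058 and 0.348 for Pdyn and between 0.139 and 0.365 for Creb1, although the differences stayed between 2.44 and 3.21 for Pdyn and between 2.17 and 2.37 for Creb1. With the 5 arrays alone, Pdyn did not pass (adjusted p = 0.132) and Creb1 did (adjusted p = 0.0193). Both called probe sets were dim without induction and passed the brightness filter through arrays of VC tissue off dox. Their p-values are therefore not independent of the filter. Without a filter neither passed (adjusted p = 0.202 for each, limma).

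**Figure D1:**
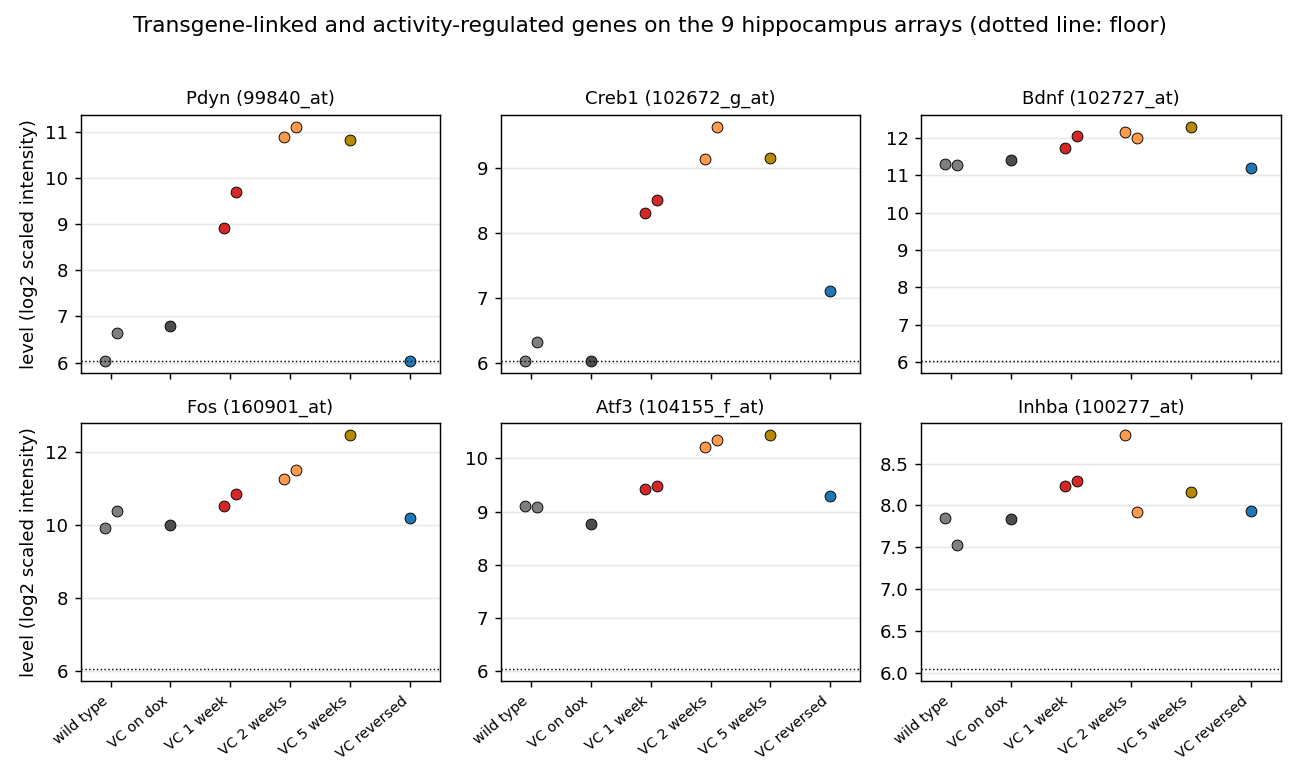
Level (log2 scaled intensity) of 6 probe sets on the 9 hippocampus arrays, 1 point an array, by group along the x axis. Pdyn and Creb1 lie at or near the dotted floor without induction and at 8.31 or above at 1 week; Bdnf, Fos and Atf3 are higher at 1 week than on any never-induced array and higher again on the 5-week array, and Inhba is highest on a 2-week array (8.84).

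The rule for naming genes also took the 12 with the smallest unadjusted p among those that stood clear upward, and the 12 downward. Besides Pdyn and Creb1, the higher genes were Zfpm2, a cofactor of GATA factors, Hipk2, a nuclear kinase, the tetraspanin Cd82, the heat shock protein family member Dnajb13, Cbx5 (heterochromatin protein 1 alpha), the imprinted zinc finger gene Peg3, the RNA polymerase III subunit Polr3k, the trans-Golgi protein Tgoln1, the peroxiredoxin Prdx4 and the proton pump subunit Atp6v0a2. None of these 10 passed: adjusted p was 0.277 for Zfpm2, Cd82 and Dnajb13 and 0.655 to 0.943 for the rest. Zfpm2 read 6.48, 7.15 and 6.04 without induction and 9.02 and 8.85 at 1 week (2.38 ± 0.38 SE), but 6.26 and 6.57 at 2 weeks. Hipk2 had the same shape, with 7.48, 6.55 and 6.20, then 8.72 and 8.53 at 1 week (1.88 ± 0.39 SE), then 6.37 and 6.05. For Zfpm2 no array outside the 1-week group read above 8.14. The filter asked for at least 2 bright arrays, so Zfpm2 entered the test through its 1-week arrays. Its p-value is therefore not independent of the filter. Cd82 read 9.48, 9.50 and 8.98 against 10.72 and 10.72 on probe set 99584_at (1.40 ± 0.23 SE), while its probe set 99585_at overlapped between groups, at 9.57, 9.37 and 9.77 against 9.89 and 9.62. Peg3 was named from probe set 101451_at (0.94 ± 0.23 SE). Its brighter probe sets overlapped, 96765_at at 13.19, 12.74 and 12.84 against 12.95 and 12.72, and 161316_f_at at 10.86, 10.58 and 10.46 against 10.73 and 10.34. For Atp6v0a2 the brightest probe set, 103681_at, overlapped at 11.60, 11.63 and 11.62 against 11.71 and 11.37, as did 102273_at. Polr3k overlapped on 104303_i_at and Dnajb13 on 100318_at. Dnajb13 was named from 162220_r_at, which read at most 7.30 on the hippocampal arrays and 8.85, 8.67 and 8.54 on the CA1 arrays. It thus passed the filter through CA1.

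The lower genes were led by Lipa, the lysosomal acid lipase, which read 7.76, 8.13 and 8.28 without induction and 6.34 and 6.04 at 1 week (-1.86 ± 0.27 SE, adjusted p = 0.193, limma). With the second 1-week array at the floor, this difference is a lower bound in size. The other 11 differed by -1.18 to -0.60 with adjusted p of 0.865 to 0.943: the amylase Amy1, Rbck1 of the linear ubiquitin ligase, H2-M10.1, the kinesin Kifc2, the splicing factor Hnrnpl, the PAR bZIP factor Tef, the uroplakin Upk3b, Psen2 of the gamma-secretase complex, Frat2, Tbc1d20 and the phosphorylase kinase subunit Phka2. Amy1, for example, read 9.12, 8.82 and 8.97 against 7.93 and 7.64. At 2 weeks Lipa was back at 7.09 and 7.90 and Frat2 read 9.77 and 9.68, above its never-induced 9.23 to 9.36. Frat2 and H2-M10.1 each had another tested probe set that overlapped at 1 week (103700_r_at and 100304_at).

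**Figure D2:**
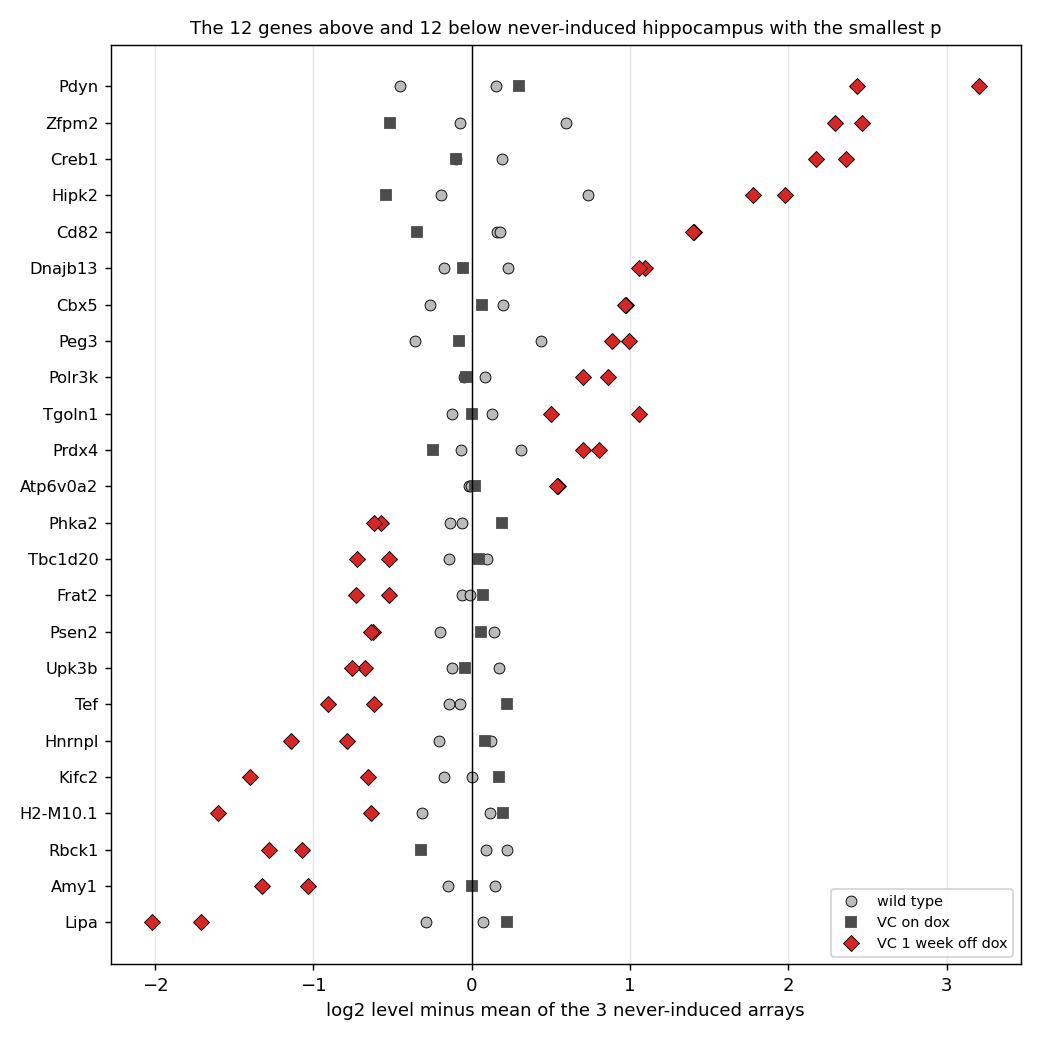
Log2 level of each array minus the mean of the 3 never-induced arrays, for the 12 genes above and 12 below with the smallest p; circles are wild type, squares VC on dox and diamonds the 2 arrays at 1 week off dox. Groups do not overlap in any row because the rule required it; Pdyn and Zfpm2 lie farthest right and Lipa farthest left.

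Neuronal genes were followed in 15 lists by role (200 tested genes, with the brightest probe set standing for each gene). On that basis 121 of 200 lay above their never-induced mean, 39 (19.5%) stood clear upward and 22 (11.0%) downward. Over all 5436 genes, 46.4% lay above the mean, 11.6% stood clear upward and 13.9% downward. No neuronal gene passed on its brightest probe set, since the called probe sets of Pdyn and Creb1 are the dimmer ones. The median neuronal difference was 0.05, against -0.02 over all genes, and it stayed between 0.04 and 0.08 with any 1 of the 5 arrays left out. The number standing clear upward ranged from 46 to 75 with an array left out, when over all genes it ranged from 822 to 1554.

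Immediate early genes had the highest median of the neuronal lists at 1 week, 0.26 over 24 genes, with 16 above their never-induced mean. Of the 24, 7 stood clear upward (29.2%) and 1 downward, against 11.6% and 13.9% of all genes. None passed. The median was 0.13 without 1-week array 2 and 0.16 without the VC array on dox. Fos, a transcription factor gene used as a marker of neuronal activity, read 9.91, 10.38 and 10.01 without induction and 10.52 and 10.84 at 1 week (0.58 ± 0.31 SE, adjusted p = 0.969), 11.26 and 11.49 at 2 weeks, 12.46 on the 5-week array and 10.18 on the reversed one. Atf3, a stress-induced transcription factor, read 9.11, 9.09 and 8.77 against 9.42 and 9.49 (0.46 ± 0.23 SE), 10.22 and 10.35 at 2 weeks, 10.43 at 5 weeks and 9.29 on the reversed array. Its dimmer probe set 104156_r_at overlapped, at 8.37, 6.32 and 6.56 against 7.45 and 7.35. Nr4a2, an orphan nuclear receptor, read 9.11, 9.19 and 9.12 against 9.72 and 9.50 (0.47 ± 0.27 SE), with 8.57 and 9.20 at 2 weeks. Ccn1, a secreted matrix protein, differed by 0.59 but lay close to the floor, at 6.47, 6.23 and 6.50 against 6.91 and 7.06. Other activity genes overlapped: Egr1 (0.04), Nr4a1 (0.11), Junb (0.06 and 0.00 on its probe sets), Fosb (-0.16) and Dusp1 (0.27).

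Among 12 growth factors, 4 stood clear upward (33.3%) and 2 downward, against 11.6% and 13.9% of all genes, with a median of 0.06. Bdnf, the neurotrophin that supports synaptic plasticity, read 11.30, 11.26 and 11.40 without induction and 11.73 and 12.05 at 1 week. Its difference of 0.57 ± 0.16 (SE) did not pass (adjusted p = 0.943, unadjusted p = 0.00632, limma). It read 12.17 and 11.99 at 2 weeks, 12.30 on the 5-week array and 11.20 on the reversed one. The heparin-binding factor Ptn differed by 0.95, the activin subunit Inhba by 0.53 and Tgfb2 by 0.30, and none of these passed.

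Of 15 other neuropeptide genes 5 stood clear downward (33.3%) and 1 upward, against 13.9% and 11.6% of all genes, with a median of -0.09. Whether the list differs from other genes was not tested. Sst, the interneuron peptide whose promoter carries the full CRE, read 13.29, 13.46 and 13.34 without induction and 13.04 and 13.02 at 1 week (-0.33 ± 0.16 SE, adjusted p = 0.969), then 13.42 and 13.60 at 2 weeks. Tac2 differed by -0.91, with 9.06 and 7.85 at 1 week, so most of its difference lay on 1-week array 2. Scg5 (-0.33) and Cck (-0.14) also stood clear downward, and Adcyap1 stood clear upward (0.52). Npy, the neuropeptide Y precursor, overlapped at 1 week (0.05) and read 12.56 and 12.82 at 2 weeks against 11.61, 11.93 and 11.69 without induction. The opioid precursor Penk differed by -0.43 on probe set 94516_f_at, opposite in sign to Pdyn.

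In the CREB family and its cofactors, 3 of 7 stood clear upward and 2 downward. Over all genes 11.6% stood clear upward and 13.9% downward. The 3 include Creb1 itself, on probe set 102671_at, and Crebbp, which cleared wild-type array 1 narrowly. The transgene contains CREB sequence, and whether 102671_at reads it was not tested. The coactivator Crebbp read 9.74, 9.65 and 8.54 against 9.77 and 9.87 and Atf2 differed by 0.27, while Cebpb differed by -0.33. Among 23 genes of cAMP signalling, 3 stood clear upward and 2 downward, with a median of 0.00. The adenylyl cyclase Adcy7 read 7.93, 7.58 and 8.04 against 8.62 and 8.24 (0.58 ± 0.20 SE), and the protein kinase A inhibitor Pkib differed by 0.29. The phosphodiesterase Pde1b (-0.31) and the anchoring protein Akap8 (-0.39 on probe set 94390_at) lay lower. Akap8 overlapped on its other tested probe sets, 161596_f_at and 95001_at.

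The largest neuronal differences after Pdyn and Creb1 were in genes of synapses, dendrites and channels, and their 1-week arrays differed from each other. Map2, a dendritic microtubule protein, read 7.23, 7.34 and 6.36 without induction and 9.94 and 8.22 at 1 week (2.10 ± 0.72 SE, adjusted p = 0.969). Camk2a, the calcium-dependent kinase of excitatory synapses, read 8.88, 7.0 and 8.95 against 10.79 and 8.96 on probe set 93660_at, so that 1-week array 2 exceeded the highest control by 0.01. The synaptic vesicle calcium sensor Syt1 read 10.47, 11.05 and 10.87 against 13.08 and 11.55. In these 3 genes 1-week array 1 was the higher of the pair by over 1.5 on the log2 scale, and the differences did not pass.

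In another set both 1-week arrays were alike. The calcium channel subunit Cacna2d1 read 9.06, 7.38 and 7.88 against 9.71 and 9.53 (1.51 ± 0.48 SE), and the axonal adhesion molecule Cntn1 read 11.87, 11.12 and 10.88 against 12.34 and 12.22 (0.99 ± 0.28 SE). The calcineurin subunit Ppp3cb read 10.55, 10.64 and 10.53 against 11.17 and 11.21 (0.61 ± 0.20 SE). The GABA-A receptor subunits Gabrb1 and Gabra2 differed by 1.03 and 0.70. Gabra2 had an SE of 0.52 although its 1-week arrays both read 9.89. Its CA1 VC arrays, which entered the estimate of spread, read 7.78 and 10.01. For Gabrb1 the wild-type array 1 reading of 11.92 nearly met the lower 1-week reading of 11.97. The potassium channel Kcna1 overlapped, because wild-type array 1 read 9.56 while wild-type array 2 and the VC array on dox read 7.56 and 7.34, against 9.52 and 9.78 at 1 week. Without wild-type array 1 its difference was 2.20 and passed (adjusted p = 0.0271, limma), the only call in that fit.

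Most of these genes were low again at 2 weeks and high on the reversed array. Map2 read 6.77 and 6.04 at 2 weeks and 8.83 after reversal, Camk2a 6.96 and 7.15 and then 9.77, Syt1 9.90 and 10.23 and then 12.02, and Kcna1 7.13 and 6.98 and then 9.22. Pdyn, Bdnf, Fos and Atf3 had the other order, highest at 2 or 5 weeks, and Pdyn, Bdnf and Fos read within or below their never-induced range after reversal. Direct differences, 2 weeks minus 1 week, were -2.67 for Map2, -2.82 for Camk2a and -2.59 for Kcna1, and did not pass in the fit with all 12 arrays (adjusted p of 0.397, 0.351 and 0.322). For Kcna1 the same difference of -2.59 passed (adjusted p = 0.00848, limma) when wild-type array 1 was dropped, and likewise when a block for scale was fitted, that array being the one hippocampal array deposited on the lower scale.

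**Figure D3:**
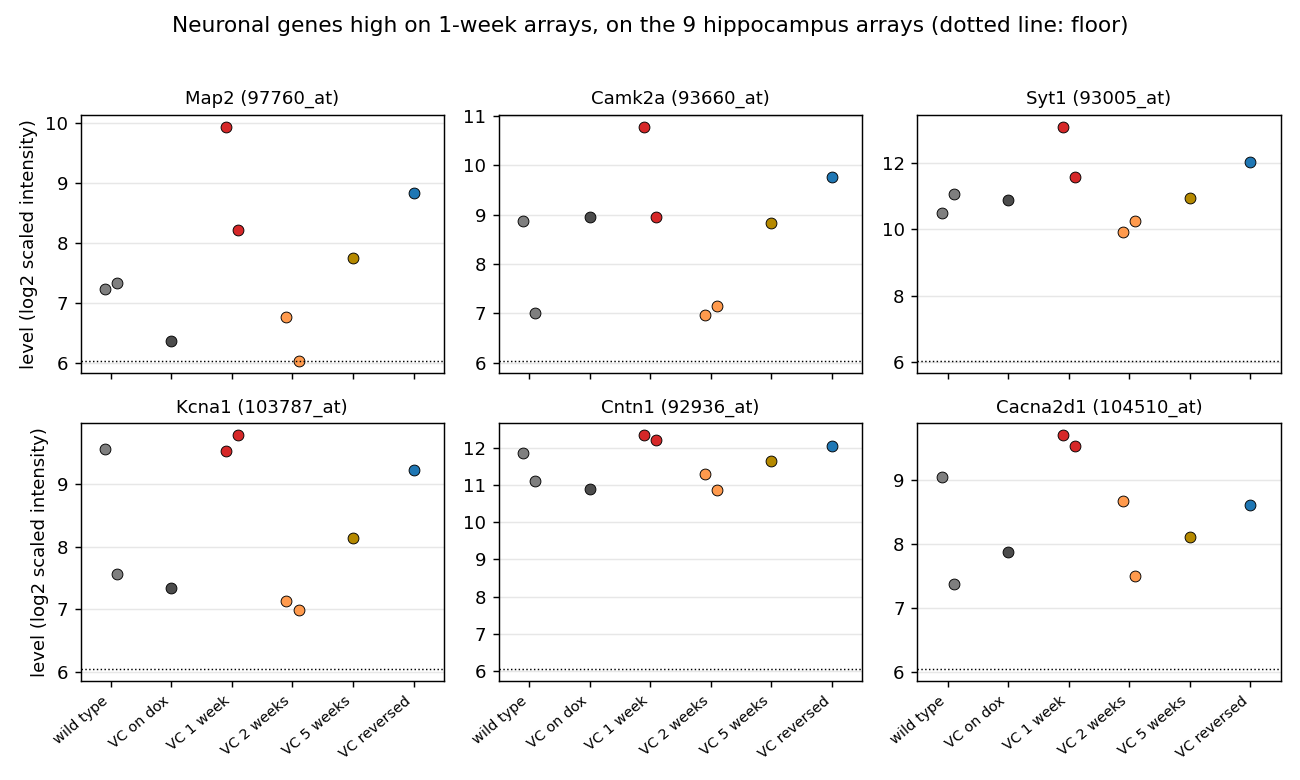
Level (log2 scaled intensity) of 6 neuronal probe sets on the 9 hippocampus arrays, 1 point an array, with the floor dotted. Both 1-week points lie above the 2-week points in every panel, the reversed array lies above both 2-week points in all panels but Cacna2d1, and Kcna1 has a wild-type array at 9.56.

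Signs of RNA quality differed between the arrays. The ratio of 3′ to 5′ signal of the Gapdh control was 1.36, 1.15 and 1.19 on the never-induced arrays, 0.868 on 1-week array 1 and 1.30 on 1-week array 2; for the Actb control it was 2.48, 2.53 and 2.65, then 1.80 and 2.81. The array with the lowest ratios was thus the one with the highest Map2, Camk2a and Syt1 levels, and the reversed array had the next lowest Gapdh ratio, 1.05. For Actb the next lowest was 2-week array 1 (2.13, against 2.37 on the reversed array), on which these 3 genes were low. The reversed array's share of probe sets at the floor was 18.0%, as on 1-week array 1 (18.0%), against 20.8% on 1-week array 2 and 19.5% to 20.4% on the never-induced arrays. Their part in the neuronal differences was not tested.

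The other neuronal lists of 7 or more genes had medians of -0.02 to 0.12. Their counts stand beside 11.6% of all genes standing clear upward and 13.9% downward, and whether any list differs was not tested. Sodium and calcium channels had a median of 0.12 with 11 of 14 genes above their never-induced mean and 3 standing clear upward (Cacna2d1, Scn8a at 0.30 and Scn1a at 0.08). Calcium and calmodulin-dependent enzymes had 10 of 13 above, 3 standing clear upward and a median of 0.11. Of 26 synaptic vesicle genes 5 stood clear upward and 1 downward, Syt11 (0.49), Syn2 (0.46) and Syt4 (0.29) among the former. Of 16 postsynaptic genes 3 stood clear upward and 4 downward. Potassium channels had 1 upward (Kcnab1, 0.22) and 3 downward (Kcnj9 at -0.42, Kcnh2 at -0.30 and Kcnd2 at -0.22) of 15. Dimmer probe sets of Kcnj9 and Kcnd2 went the other way. Kcnj9 on 161799_r_at stood clear upward, at 8.67, 8.79 and 8.51 against 8.94 and 9.66. Kcnd2 on 98364_at, too dim to test, read 7.74, 7.47 and 7.28 against 8.66 and 8.22. Glutamate receptors had 1 of 9 in each direction, Grm8 (0.56) and Grik5 (-0.16), and the AMPA receptor subunit Gria1 overlapped on both of its tested probe sets.

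Immune genes were followed in 7 lists (82 tested genes). At 1 week 9 stood clear upward (11.0%) and 6 downward (7.3%), against 11.6% and 13.9% of all genes, so the upward share was near the background. The median difference was 0.03, and none passed. The median of the same 82 genes was 0.42 at 2 weeks and 1.07 at 5 weeks; all 3 medians are taken against the same never-induced arrays. The 21 microglia and macrophage markers had medians of 0.01, 0.76 and 1.60, MHC class I and antigen processing 0.12, 0.54 and 1.17 over 13 genes, MHC class II 0.06, 0.60 and 2.53 over 7 genes, and the interferon response 0.01, 0.39 and 1.88 over 11 genes. Immediate early genes, by comparison, had medians of 0.26, 0.16 and 0.77, and the whole neuronal class 0.05, -0.06 and -0.02.

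**Figure D4:**
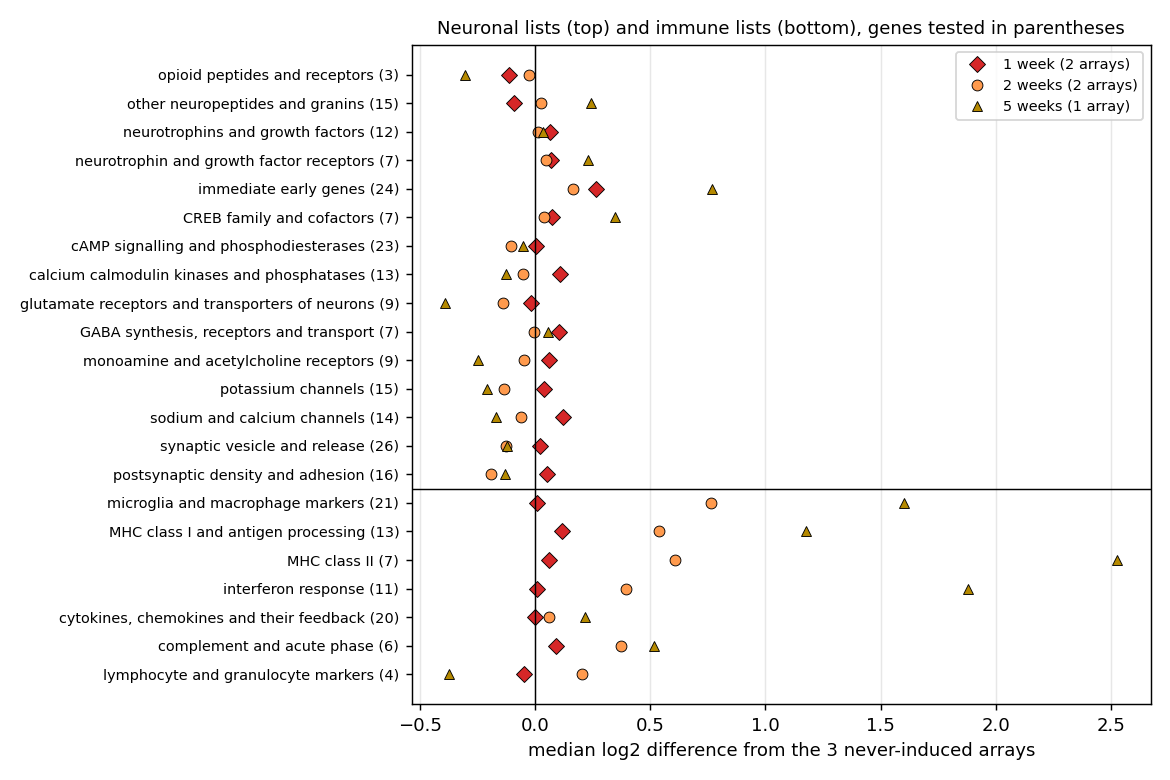
Median log2 difference of each neuronal list (above the line) and immune list (below it) from the 3 never-induced arrays at 1, 2 and 5 weeks; the number of tested genes is in parentheses. At 1 week every list median lies between -0.11 and 0.26; MHC class II is at 2.53 on the 5-week array.

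Several defining immune genes overlapped between the groups at 1 week. Cst7, a cathepsin inhibitor of activated microglia, read 6.04, 6.09 and 6.24 without induction and 6.06 and 6.04 at 1 week, then 8.94 and 10.44 at 2 weeks and 11.49 at 5 weeks. H2-Aa, an MHC class II chain, was at the floor (6.04) on all 5 arrays and read 9.90 at 5 weeks. The complement gene C1qa overlapped at 11.03, 11.41 and 11.55 against 11.41 and 11.26, as did the microglial genes Aif1 (0.04) and Tyrobp (-0.31). Gfap, the astrocyte filament gene, overlapped on probe set 94144_g_at at 11.79, 12.21 and 12.10 against 11.93 and 12.15. Its dimmer probe set 94143_at stood clear upward by a narrow margin, at 10.21, 10.20 and 9.92 against 10.45 and 10.26 (0.24 ± 0.19 SE), and did not pass (adjusted p = 0.969, limma).

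Some immune genes stood clear, as genes did generally at about this rate. H2-Eb1, another MHC class II chain, read 6.88, 7.10 and 7.09 without induction and 8.28 and 8.11 at 1 week (1.17 ± 0.33 SE, adjusted p = 0.943, unadjusted p = 0.00624, limma), then 7.11 and 8.36 at 2 weeks and 9.55 at 5 weeks. The chemokine Ccl9 read 7.17, 7.42 and 7.36 against 7.87 and 8.12 (0.68 ± 0.30 SE) and read 8.41 and 8.76 at 2 weeks. Smaller differences stood clear for Cd52 (0.40), Cd74 (0.34), Mpeg1 (0.33), Cd68 (0.21), Ifitm3 (0.24) and A2m (0.45), and the peptide-loading chaperone Pdia3 differed by 0.74. In the other direction, the cytokine feedback gene Socs3 differed by -0.93, the interferon regulatory factors Irf1 and Irf8 by -0.94 and -0.23, and Nfkbia by -0.31. Socs3 was close to the floor on 162206_f_at, at 7.21, 7.37 and 7.12 against 6.07 and 6.53, and its probe set 92232_at was at the floor. Irf1 read 8.66 and 7.43 at 1 week, so most of its difference lay on 1-week array 2. Nfkbia overlapped on 104149_at, at 9.33, 9.71 and 10.20 against 9.67 and 9.85.

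The direct test of time called 45 of 7069 probe sets between 5 weeks and 1 week (0.637%, limma), 38 higher and 7 lower at 5 weeks. The 5-week group is 1 array, assumed here to vary like the replicated groups. By gene, 20 of 82 immune genes were among the calls and 0 of 200 neuronal genes, against 33 of 5436 genes in all (26 immune and 3 neuronal genes in the fit on the 9 hippocampus arrays). With 1-week array 1 left out 3 probe sets passed, 1 of them an immune gene, and with array 2 left out 10 passed, 4 of them immune genes. Without the VC array on dox 27 passed. For 2 weeks minus 1 week limma called none in the fit of 12 arrays, with 672 probe sets at an unadjusted p under 0.05. In the fit on the 9 hippocampus arrays alone 13 passed for that contrast. Higher at 2 weeks there were Cst7 (3.64), Gfap (1.62) and the chemokine Ccl12 (1.13). Lower were Zfpm2 (-2.52), the GABA-A subunit Gabra2 (-1.44), the synaptic adaptor Srcin1 (-1.83), the laminin chain Lama5 (-1.55), Ccdc88a (-1.44) and Matr3 (-1.62). The remaining 4 probe sets had no single gene name, and genes outside the naming rule were picked after their values were seen.

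Markers of other cell types were read on the same arrays. Choroid plexus, the epithelium that makes cerebrospinal fluid and lies against the hippocampus, had 6 tested markers of 20, and 5 stood clear upward (83.3%), against 11.6% of all genes. Ttr, the transthyretin gene, read 11.35, 11.48 and 10.16 without induction and 12.91 and 13.10 at 1 week (2.01 ± 0.93 SE, adjusted p = 0.969). Folr1 (0.71), Igf2 (0.66), Kl (0.59) and Igfbp2 (0.46) stood clear too, and Msx1 (0.07) overlapped. The 5 did not move together on every array. On 2-week array 1, Ttr (8.64), Kl (7.98) and Folr1 (7.79) lay below all never-induced arrays. Igf2 (11.79) and Igfbp2 (11.02) lay above them there. The summed scaled intensity of the 6 markers was 5952 to 8672 on the never-induced arrays, and 15514 and 16997 at 1 week. Sums were 7480.5 and 11774 for 2 weeks, 13615 for 5 weeks and 5506 for the reversed array. Blood had 2 tested markers, and Hba-a1 read 12.72, 12.54 and 12.30 against 12.78 and 13.86, so that the pools differed in it mainly on 1-week array 2. The part of choroid plexus or blood in the 1-week differences was not tested.

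**Figure D5:**
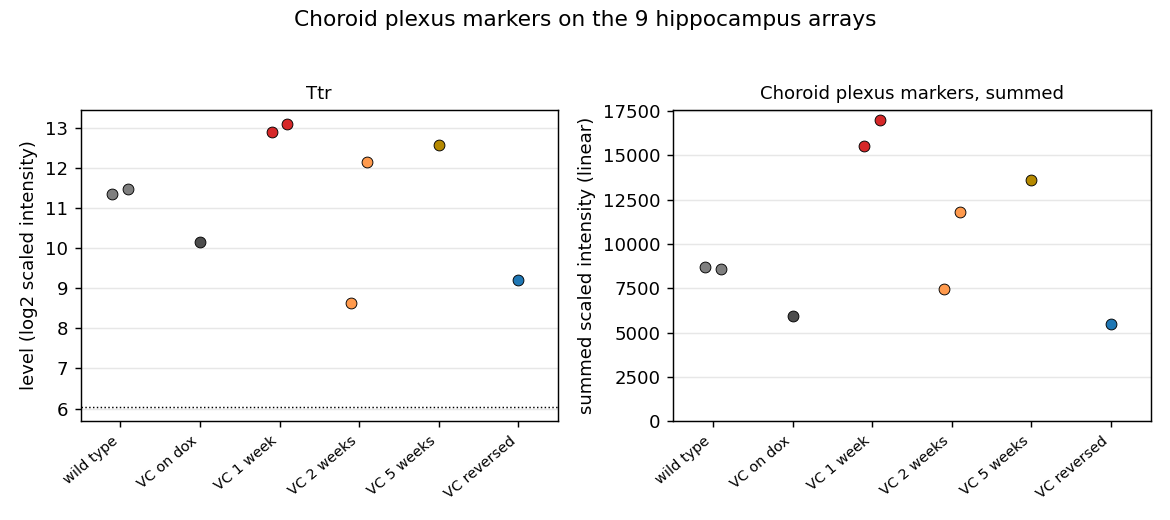
Choroid plexus markers on the 9 hippocampus arrays, 1 point an array: the log2 level of Ttr (left, floor dotted) and the summed scaled intensity of 6 markers on a linear axis from 0 (right). The 1-week arrays have the highest sums, 15514 and 16997; the VC array on dox and the reversed array have the lowest.

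Astrocyte, endothelial and oligodendrocyte lists had medians of -0.10, 0.04 and 0.03, with 1 of 18, 1 of 18 and 3 of 10 genes standing clear upward. Over all genes 11.6% stood clear upward and 13.9% downward. The water channel Aqp4 read 9.50, 9.14 and 8.60 against 10.01 and 10.05, while the metallothioneins Mt1 and Mt2 differed by -0.24 and -0.33 and read above their never-induced levels at 2 weeks. Dentate granule cell markers had 4 of 9 standing clear upward (44.4%, against 11.6% of all genes) with a median of -0.07. The 4 were Tdo2 (0.73), Ptprd (0.64), Gas7 (0.55) and Neurod1 (0.42). Gas7 overlapped on its other probe set, 162095_f_at. Whether the list differs from other genes was not tested. The CA1 marker Zbtb20 read 8.97, 8.05 and 8.04 against 9.43 and 9.74, and Neurod6, a pyramidal cell factor, 10.78, 10.61 and 10.89 against 11.25 and 11.32. Of markers of neighbouring regions, Th (0.83) and Lef1 (0.90) stood clear upward and Calb2, Penk and Tac2 downward. Hippocampal markers were present: 4 of 7 CA1, 7 of 8 CA3 and CA2 and 3 of 9 dentate markers lay above the median of tested probe sets on all 5 arrays.

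Housekeeping lists showed how far the 1-week arrays differed from each other. Of 47 oxidative phosphorylation genes 35 lay below their never-induced mean, with a median of -0.09. Of the 47, 7 stood clear downward and 2 upward, against 13.9% and 11.6% of all genes. The median was -0.20 on 1-week array 1 and 0.05 on 1-week array 2. Cytosolic ribosomal protein genes had a median of 0.08 over 24 genes, made of -0.14 on array 1 and 0.30 on array 2. Ndufa6 (-0.41) and Uqcrc1 (-0.29) of the respiratory chain stood clear downward on both arrays. Over tested probe sets the 1-week arrays correlated with each other at 0.960, the never-induced arrays at 0.967 to 0.978, and arrays across the groups at 0.953 to 0.965, so the 1-week pair was no closer than some pairs across groups.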

How the data were processed

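Total RNA from dissected hippocampi gave polyA RNA, which was hybridised to MG-U74Av2 arrays, per the labels' protocols. The deposited intensity values are linear, and the submitters' processing notes name GCOS, without a version; their algorithm and scaling go unnamed in the sources used here, and no detection call was used. The trimmed mean without the top and bottom 2% was 500.3 on wild-type array 1 and 3002 on the other 8 hippocampal arrays. Arrays were brought to 1 trimmed mean (1000) and log2 transformed with a floor at their 20th percentile, and probe sets above their array's median on at least 2 of 12 arrays were tested. Of 12488 probe sets 66 were controls; 10833 had a single gene symbol, 396 several and 1193 none, and 6405 tested ones with a single symbol covered 5436 genes.

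limma 3.58.1 in R 4.3.3 was fitted over 12 arrays in 7 levels, without trend or robust settings, two-sided, with Benjamini-Hochberg adjustment; single arrays were assumed to vary like replicated ones, and the script was tested on simulated data. In lists (36 in all) the probe set with the highest mean stood for a gene. Named genes were those past the threshold, the 12 higher and 12 lower with the smallest p whose groups did not overlap, 47 fixed genes (37 tested) and up to 4 such members of each list by difference. Of the fixed genes Oprk1, Ntrk2, Homer1, Crem, Camk4, Grin2b and Gad2 were too dim to test and Arc, Grin1 and Syn1 were matched to no probe set of a single symbol. Members and lists were chosen with earlier results of these data known. A fold is "at least" where a lower array lay at the floor. Probe sets ending in _f_at or _s_at can read related genes.

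Alternatives changed the arrays fitted, scaling, floor, filter, moderation, block, control and each array in turn. With VC on dox as the only control, the wild-type arrays formed a level of their own. Contrasts between induced groups hold no control. For them this setting changed only the estimate of spread and was the same fit as leaving out the VC array on dox. Promoter sequences are RefSeq's (GRCm38.p6).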

Additional observations from a re-analysis of the deposited data

Results flagged for a closer look

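These genes differed between 5 weeks and 1 week by the direct test (limma, adjusted p at or under 0.05), with 1 array at 5 weeks and 2 at 1 week; values are log2, 5 weeks minus 1 week. Microglial genes were higher at 5 weeks: Cst7 by 5.44, Tyrobp by 2.81, C1qa by 2.13, Cd52 by 2.08, Irf8 by 1.91, C1qb by 1.90 and Mpeg1 by 1.54. Antigen presentation genes were H2-Aa (3.87), Cd74 (2.52) and H2-K1 (1.85 on probe set 93120_f_at, which can read related genes). H2-Aa was at the floor on both 1-week arrays, and Cst7 was at it on 1-week array 2. Their differences are thus lower bounds, and arrays at the floor understate the spread. Interferon-response genes were Isg15 (3.96), Irf7 (2.87) and Ifitm3 (1.64). The astrocyte gene Gfap differed by 2.30 and 1.77 on its probe sets. Of these 15 probe sets, 2 passed without 1-week array 1 and 2 without 1-week array 2, and all 15 stayed higher at 5 weeks in both fits.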

How the results depend on the processing

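The 1-week comparison called 2 probe sets. It called 1 with the 9 hippocampus arrays only, 0 with quantile normalization, 0 with values as deposited, 0 with a floor at the 10th percentile, 1 with a pseudocount of 50 and no floor, 5 without a filter (Oxsm, Celf1, Pla2g5, Exo1 and Atp6v0a2, of which Atp6v0a2 alone passed the filter), 1 with trend and robust settings, 1 with the deposited scale as block and 0 with VC on dox as the only control, and between 0 and 1 with 1 array left out. The cause was not tested where none is named here. For Pdyn the difference was 2.82 with the hippocampus arrays only and with the 5 arrays alone, 2.71 with quantile normalization, 2.32 as deposited (relative to the median of all tested probe sets, which shifted by 0.85), 2.89 with the lower floor, 2.82 without a filter, 2.59 with the scale block and 2.52 against VC on dox, and it missed the threshold in each (adjusted p of 0.0549 to 0.578). For Creb1 it was 2.15, 1.92 and 2.50 with quantile normalization, deposited values and the lower floor, 1.38 with a floor at the 30th percentile, 1.82 with the pseudocount, 2.27 without a filter and with trend and robust settings, 2.22 with the scale block and 2.37 against VC on dox (adjusted p of 0.0655 to 0.578). Left-out arrays gave 2.44 to 3.21 for Pdyn and 2.17 to 2.37 for Creb1.

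Probe sets standing clear numbered 1508 upward and 0 downward as deposited (wild-type array 1 is on a lower scale), 1337 upward without a filter, and 2311 upward and 2343 downward against VC on dox alone; with an array left out they numbered 1131 to 2193 upward and 1251 to 2254 downward, since fewer arrays had to be cleared. The percentage of these lying upward was 48.5 in the main setting, 100 as deposited and 40.8 with median scaling.

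For 5 weeks minus 1 week, in settings added after the data were seen, 45 calls became 67 with the 9 hippocampus arrays, 50 with the replicate block, 1 as deposited, 27 against VC on dox, and 3 to 34 with an array left out. For 2 weeks minus 1 week, 0 calls became 13 with the 9 hippocampus arrays, 1 with median scaling, 1 with the higher floor, 11 without a filter, 1 with the 5-array filter, 3 with trend and robust settings, 2 with the scale block, 1 against VC on dox, and 0 to 2 with an array left out.

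The replicate numbers in the titles did not pair the samples (correlations of deviations 0.04, 0.02 and -0.10); with them as a replicate block, 2 probe sets passed, Pdyn and Creb1, each with an adjusted p of 0.00954.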
